A study of Mus musculus with 18 samples.

Results

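The 42 genes described here encode proteins that prepare, open and copy replication origins, supply nucleotides for DNA synthesis, or start and guard S phase. They form a list of names that was chosen with earlier results of these data known. Measured values enter the rule only in the choice between several probe sets of a gene. Each gene was read from a probe set that carries its symbol alone in the platform annotation, and where there were several, from the one with the highest mean over all 18 arrays. All 42 were measured among the 19938 genes with such a probe set, and no filter on low values was applied. The genes were ordered by role: origin licensing, the MCM helicase ring, origin firing, polymerases and primase, sliding clamp and lagging strand, nucleotide supply, chromatin, G1/S drivers, and checkpoint.

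RNA came from terminal bronchiolar epithelial cells, which line the smallest conducting airways of the lung, of mice on a mixed FVB/N and C57BL/6 background. Control mice and mice labelled Cebpa d/d were each sampled 0, 3 and 72 hr after naphthalene, with 3 arrays in each of the 6 groups, and the 0 hr groups carry the treatment label too. Naphthalene is made toxic inside club cells by a cytochrome P450, so club cells are the cells that it injures, and the product of Cebpa is C/EBP alpha, a transcription factor of epithelial differentiation. The labels used here do not say what the d/d allele removes or what drives the deletion, nor that replicates are separate animals. P-values thus cover only how far these arrays scatter. All levels are log2 values and all differences are log2 differences between groups of 3 arrays, with their standard error (SE) from a single limma fit of the 6 groups. A gene passed the test, and is said to have risen or fallen, where its adjusted p was under 0.05 (limma, Benjamini-Hochberg over 19938 genes).

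The array labelled control 0 hr replicate 1 went against its label: its Cebpa level was 7.89, against 10.07 and 10.17 in the other control arrays at 0 hr and 7.83 to 8.27 in the Cebpa d/d arrays at 0 hr. By Xist and Eif2s3y, all 6 arrays at 72 hr came from females, against 2 of 6 at 0 hr and 2 of 6 at 3 hr. Each group at 0 and 3 hr held arrays of both sexes, so its arrays were not all of the same animal, while for the groups at 72 hr the scatter may be technical. Club cell markers were high in every array (a mean of 11.37 to 11.91 over 8 markers), but 7 endothelial markers also read 8.54 to 9.62, where array medians were 6.48 to 6.65, so transcripts of other lung cells were present. At 0 hr the 9 cardiac muscle markers averaged 10.20 to 11.05 in Cebpa d/d and 7.58 to 9.36 in control, and at 72 hr 7.55 to 8.0 in both genotypes. In these bulk samples, more cycling cells and more RNA per cycling cell cannot be told apart.

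A cell prepares replication origins in G1, when the origin recognition complex, Cdc6 and Cdt1 load the ring of 6 MCM proteins onto DNA as an inactive helicase. At the start of S phase the kinases Cdc7-Dbf4 and cyclin-Cdk2 switch the ring on with Cdc45 and the GINS complex, and polymerases copy both strands behind it. Most of these genes are targets of the E2F transcription factors, which are released when cyclin D and cyclin E kinases inactivate the retinoblastoma protein. In a resting airway few epithelial cells divide, and after naphthalene the surviving cells enter the cell cycle to refill the epithelium.

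The promoters of the members were searched for letters known from cell cycle promoters, because the genes are grouped by a shared program. RefSeq promoter windows (assembly GRCm38.p6, 250 bases before to 50 bases after the start site) were found for 35 of the 42 genes. Mcm4, Gins1, Gins2, Pole, Prim2, Ccne2 and Gmnn had no entry and are named only. An E2F motif, spelled TTTCCCGC, TTTGGCGC, TTTCGCGC or TTTGCCGC and read on either strand, was found in 14 of the 35 genes (40.0%), against 2.6% of 27025 genes in the table. The 27025 genes were not limited to those measured here and were not matched for base composition. These spellings can overlap each other on opposite strands, as they do in Mcm6. The 5 genes that hold it and had the largest mean difference between 72 hr and 0 hr over both genotypes are shown, 5′ to 3′ on the gene's strand, with the motif in capitals. Their windows are chr1:128359656-128359955 (minus strand), chr5:138171834-138172133 (minus strand), chr4:126556730-126557029 (plus strand), chr12:69228141-69228440 (minus strand) and chr1:20820263-20820562 (minus strand).
Mcm6: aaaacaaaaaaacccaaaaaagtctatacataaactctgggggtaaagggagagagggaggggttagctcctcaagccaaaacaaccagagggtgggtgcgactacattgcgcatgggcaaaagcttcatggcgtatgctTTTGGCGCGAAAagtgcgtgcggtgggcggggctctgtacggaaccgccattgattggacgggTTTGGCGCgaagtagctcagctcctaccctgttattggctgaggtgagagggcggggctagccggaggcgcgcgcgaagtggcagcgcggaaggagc
Mcm7: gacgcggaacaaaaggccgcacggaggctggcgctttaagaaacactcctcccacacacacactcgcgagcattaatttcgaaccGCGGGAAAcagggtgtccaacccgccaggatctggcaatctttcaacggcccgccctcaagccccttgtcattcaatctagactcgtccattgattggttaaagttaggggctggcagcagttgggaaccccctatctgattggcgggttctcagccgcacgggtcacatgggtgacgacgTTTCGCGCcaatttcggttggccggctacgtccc
Clspn: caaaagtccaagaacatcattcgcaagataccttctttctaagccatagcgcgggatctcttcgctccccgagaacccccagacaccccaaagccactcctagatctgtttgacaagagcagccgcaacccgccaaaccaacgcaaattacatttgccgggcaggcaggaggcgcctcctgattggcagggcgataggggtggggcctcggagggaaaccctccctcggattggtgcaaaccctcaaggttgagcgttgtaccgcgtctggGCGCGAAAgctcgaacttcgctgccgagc
Pole2: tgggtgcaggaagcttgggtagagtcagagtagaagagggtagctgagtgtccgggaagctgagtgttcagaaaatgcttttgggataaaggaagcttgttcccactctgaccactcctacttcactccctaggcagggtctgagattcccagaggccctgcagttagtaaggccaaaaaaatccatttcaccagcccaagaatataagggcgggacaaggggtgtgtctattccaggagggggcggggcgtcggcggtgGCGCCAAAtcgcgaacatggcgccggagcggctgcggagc
Mcm3: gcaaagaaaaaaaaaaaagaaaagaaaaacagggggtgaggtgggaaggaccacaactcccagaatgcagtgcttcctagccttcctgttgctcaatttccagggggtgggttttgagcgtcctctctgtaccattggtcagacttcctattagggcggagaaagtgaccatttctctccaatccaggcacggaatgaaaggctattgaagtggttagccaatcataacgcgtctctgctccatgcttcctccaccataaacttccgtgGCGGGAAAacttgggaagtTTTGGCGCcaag

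In Mcm7, Clspn, Pole2 and Mcm3 the motif lies within the last 50 bases of the window, after the annotated start site, and the Mcm7 window, which is 1 of 2 in the table for that gene, has a further match that begins at -165. In Mcm6 all matches lie before the start, beginning at -110, -106 and -47. Without its leading T, the motif was found in 24 of the 35 genes (68.6%), against 10.9% of all genes, and the nucleotide synthesis genes Rrm1 and Rrm2 joined the list. A CCAAT box (CCAAT on either strand) was found in 20 of 35 genes (57.1%, against 41.1%) and the cell cycle homology region, TTTGAA or TTCGAA on either strand, in 7 of 35 (20.0%, against 21.7%). In the Mcm7 window the CCAAT at 24 bases after the start shares its first base with the E2F match before it. The mean difference between 72 hr and 0 hr over both genotypes had a median of 0.44 in the 14 genes with the longer E2F motif (0.05 to 0.80) and of 0.39 in the 21 genes without it (0.16 to 1.35). A match describes letters in a window and does not show that a factor binds there.

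The replication genes lay higher at 72 hr in both genotypes. Their mean level per array at 0 hr was 6.70 to 6.75 in control and 6.67 to 6.70 in Cebpa d/d, and 6.67 to 6.74 and 6.64 to 6.82 at 3 hr. At 72 hr it was 7.12, 7.20 and 7.23 in control and 6.96, 7.38 and 7.28 in Cebpa d/d. Each of the 6 arrays at 72 hr therefore stood above each of the 12 earlier arrays, and the lowest of them was Cebpa d/d 72 hr replicate 1.

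**Figure D1:**
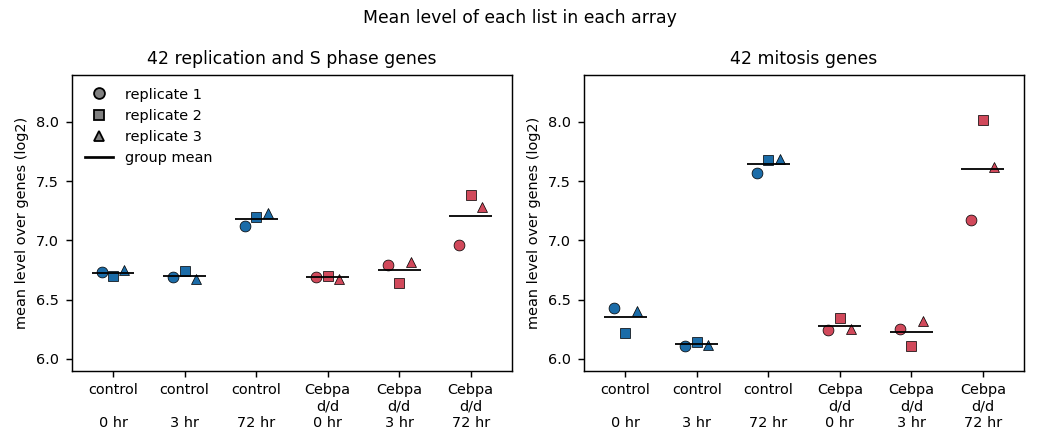
Mean level (log2, vertical axis) of the 42 replication and S phase genes (left) and of 42 mitosis genes (right) in each of 18 arrays, by group; symbols are replicates, lines group means, blue control and red Cebpa d/d. Replication genes lie at 6.64 to 6.82 at 0 and 3 hr and at 6.96 to 7.38 at 72 hr, and in both panels Cebpa d/d 72 hr replicate 1 is the lowest array at 72 hr.

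Between 0 and 72 hr, 17 members rose and 0 fell in control, where 4.95% of all genes rose and 2.20% fell. In Cebpa d/d 16 rose and 0 fell, where 3.39% of all genes rose and 1.42% fell. The median difference over all 42 members was 0.44 in control and 0.48 in Cebpa d/d, while over all genes it was -0.02 in each. Positive differences were seen for 41 of 42 members in control and 42 of 42 in Cebpa d/d, against 44.6% and 46.0% of all genes. The arrays of the groups did not overlap for 30 members in control (13.1% of all genes were higher in this way) and for 27 in Cebpa d/d (12.2%). Of the 17 and the 16 genes, 11 rose in both genotypes: Mcm2, Mcm7, Gins1, Gins2, Pole, Rrm1, Rrm2, Tyms, Fen1, Lig1 and Clspn. Cdc45, Cdc6, Mcm4, Mcm5, Orc6 and Pole2 passed in control alone, and Dbf4, Dtl, Mcm6, Pcna and Prim2 in Cebpa d/d alone, but no member passed the test of a difference between genotypes (0.0953% of all genes did). The other 20 members passed in neither.

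How many members passed depended on single arrays, and the shares of all genes given above hold only for the fit with all arrays. Whether members lost calls more often than other genes is not shown here. In control, the omission of replicate 2 at 0 hr left 7 genes that rose and that of replicate 3 left 11. Omitting replicate 2 at 72 hr left 8, and omitting replicate 3 left 8. Without the array labelled control 0 hr replicate 1 it was 13. In Cebpa d/d 26 rose without Cebpa d/d 72 hr replicate 1, 7 without replicate 2 and 8 without replicate 3 at 72 hr, and 10 without Cebpa d/d 0 hr replicate 3. Fen1, Gins2, Mcm7 and Rrm2 rose in both genotypes whichever array was left out. With sex as a covariate 11 of the 17 calls and 11 of the 16 calls remained, and the differences of the 33 calls ran from 0.41 to 1.52. All arrays at 72 hr came from females, so the sex term rests on the 0 and 3 hr arrays alone. A sex effect particular to 72 hr cannot be told apart from time. The 6 lost in control were Cdc6, Lig1, Mcm5, Orc6, Pole2 and Rrm1 and the 5 lost in Cebpa d/d were Clspn, Mcm2, Mcm6, Pcna and Rrm1, at adjusted p up to 0.132. Among arrays of 1 time, with genotypes pooled, the sexes overlapped: at 0 hr the mean of the 42 genes was 6.69 to 6.75 in 2 female arrays and 6.67 to 6.73 in 4 male arrays. At 3 hr it was 6.64 to 6.74 in 2 female and 6.67 to 6.82 in 4 male arrays. Within Cebpa d/d the female array lay between the 2 male arrays at 0 hr (6.69 against 6.70 and 6.67). At 3 hr it lay below them (6.64 against 6.79 and 6.82). Within control the female array lay above the 2 male arrays at 0 hr (6.75 against 6.73 and 6.70) and at 3 hr (6.74 against 6.69 and 6.67).

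**Figure D2:**
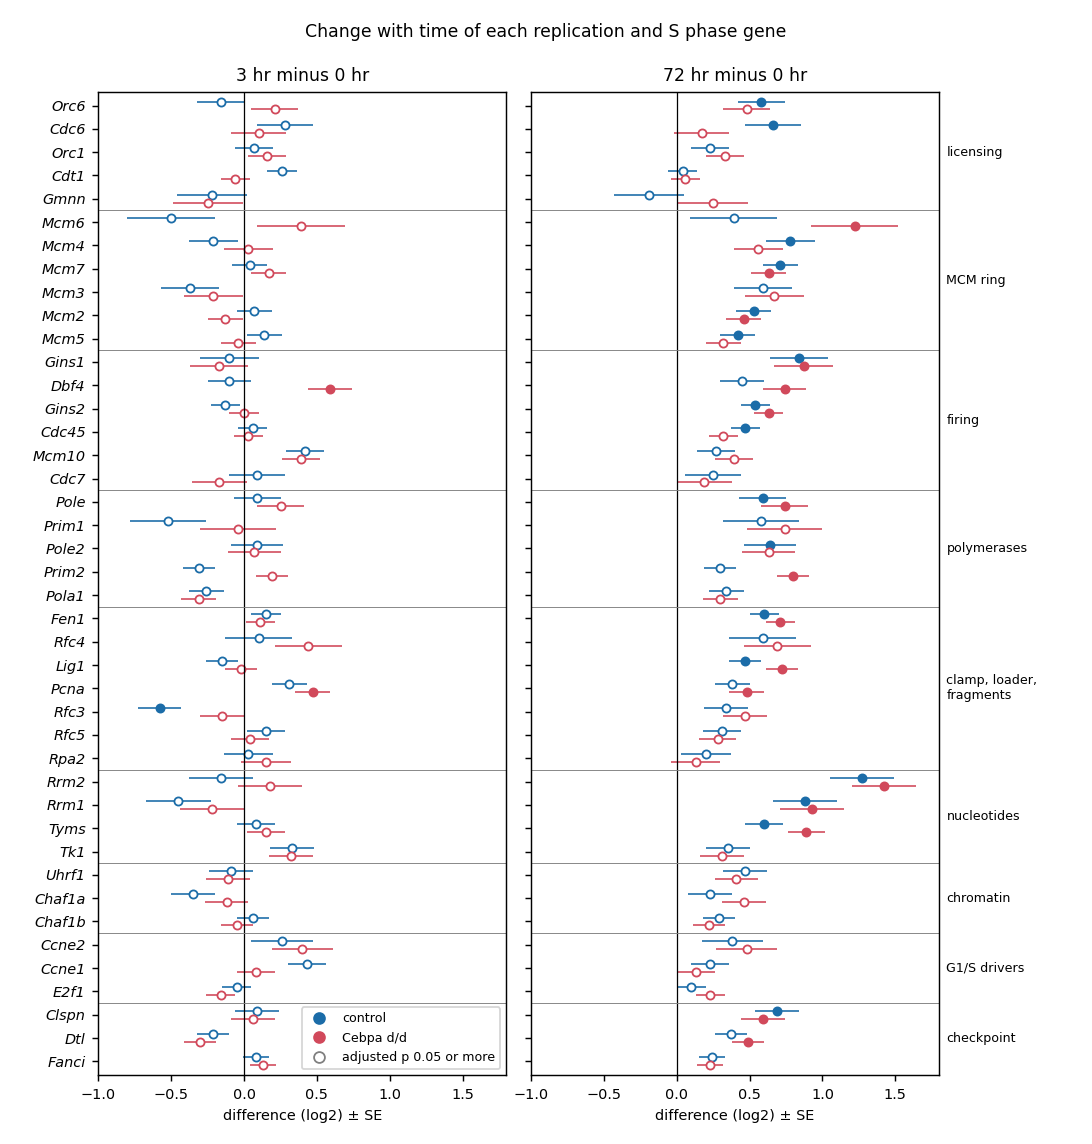
Difference of each of the 42 genes between 3 and 0 hr (left) and between 72 and 0 hr (right), in log2 units with SE, in control (blue) and Cebpa d/d (red), grouped by role; filled points passed at an adjusted p under 0.05. At 72 hr all points but Gmnn in control lie right of 0 and Rrm2 lies farthest right, while at 3 hr the points lie on both sides of 0 and 3 are filled.

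Nucleotide supply had the largest median difference of the roles (0.74 in control and 0.91 in Cebpa d/d) and the largest single rise in each genotype, that of Rrm2. Ribonucleotide reductase, which makes deoxynucleotides, has a large subunit, Rrm1, and a small subunit, Rrm2, that is made in S phase. Rrm2 stood at 6.73, 6.58 and 6.45 in control arrays at 0 hr, at 6.42, 6.34 and 6.51 at 3 hr and at 7.48, 8.16 and 7.94 at 72 hr. The Cebpa d/d arrays held 6.56, 6.51 and 6.27 at 0 hr, 6.77, 6.37 and 6.76 at 3 hr and 7.30, 8.44 and 7.87 at 72 hr. All arrays at 72 hr were higher than all earlier ones, and the lowest at 72 hr was Cebpa d/d replicate 1. The rise from 0 hr was 1.27 ± 0.22 in control (2.41-fold; adjusted p = 0.00245) and 1.42 ± 0.22 in Cebpa d/d (2.68-fold; adjusted p = 0.000905). Rrm1 rose by 0.88 ± 0.22 (adjusted p = 0.0244) and 0.93 ± 0.22 (adjusted p = 0.0208). Thymidylate synthase, Tyms, which makes the thymine nucleotide, rose by 0.60 ± 0.13 (adjusted p = 0.0108) and 0.89 ± 0.13 (adjusted p = 0.000687).

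The salvage enzyme thymidine kinase, Tk1, which recovers thymidine, did not pass. Its levels were 7.19, 7.46 and 7.45 at 0 hr and 7.72, 7.74 and 7.70 at 72 hr in control, and 7.58, 7.49 and 7.48 at 0 hr and 7.49, 7.98 and 8.02 at 72 hr in Cebpa d/d. The control groups did not overlap (0.35 ± 0.15, adjusted p = 0.171), and in Cebpa d/d 1 array at 72 hr lay within the 0 hr range (0.31 ± 0.15, adjusted p = 0.28). At 3 hr Tk1 was at 7.59 to 7.82 in control and 7.60 to 8.18 in Cebpa d/d (0.33 ± 0.15 and 0.32 ± 0.15 from 0 hr, neither passing), but a further Tk1 probe set gave 0.27 and -0.09. Rrm2 passed without any single array in both genotypes and Tyms in Cebpa d/d, whereas other calls rested on single arrays. Rrm1 was lost without replicate 2 or 3 at 0 or 72 hr in control, and without replicate 1 or 3 at 0 hr or 2 or 3 at 72 hr in Cebpa d/d (adjusted p up to 0.126). Tyms in control was lost without replicate 2 at 0 or 72 hr (up to 0.067).

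Of the MCM ring, the 6 related ATPases that unwind DNA, 4 rose in control and 3 in Cebpa d/d, with median differences of 0.56 and 0.60. Mcm7 rose in both, by 0.71 ± 0.12 (adjusted p = 0.0023) and 0.63 ± 0.12 (adjusted p = 0.00513), and so did Mcm2, by 0.53 ± 0.12 (adjusted p = 0.0157) and 0.46 ± 0.12 (adjusted p = 0.0432). Mcm4 passed in control (0.78 ± 0.17, adjusted p = 0.0122) and had a difference of 0.56 ± 0.17 (adjusted p = 0.0783) in Cebpa d/d. Mcm3 passed in neither (0.59 ± 0.20 and 0.67 ± 0.20; adjusted p = 0.0834 and 0.0657).

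Mcm6 varied most between arrays before 72 hr. In control it stood at 7.44, 7.19 and 7.94 at 0 hr, 7.30, 7.45 and 6.30 at 3 hr and 7.87, 7.88 and 7.98 at 72 hr. Values in Cebpa d/d were 7.37, 6.44 and 6.60 at 0 hr, 7.40, 7.07 and 7.12 at 3 hr and 7.51, 8.52 and 8.04 at 72 hr. The control groups at 0 and 72 hr overlapped (0.39 ± 0.30, adjusted p = 0.511), and in Cebpa d/d they did not, so that Mcm6 rose by 1.22 ± 0.30 (adjusted p = 0.0244). The difference between these changes, 0.83 with a 95% interval of -0.07 to 1.73, did not pass. Mcm5 had the smallest difference of the ring over both genotypes. Its levels were 6.77, 6.76 and 6.48 at 0 hr and 7.13, 7.01 and 7.13 at 72 hr in control, where it rose (0.42 ± 0.12, adjusted p = 0.0367). Its levels in Cebpa d/d were 6.94, 6.75 and 6.93 at 0 hr and 6.92, 7.41 and 7.26 at 72 hr, and the groups overlapped (0.32 ± 0.12, adjusted p = 0.136). Mcm7 passed whichever array was left out. Mcm6 was lost without replicate 2 or 3 of Cebpa d/d at 0 or 72 hr (adjusted p up to 0.152), and Mcm4 without control replicate 2 at 0 hr or 2 or 3 at 72 hr (up to 0.0614). Mcm5 was lost without each of 5 control arrays (up to 0.151), all those at 0 and 72 hr but replicate 1 at 0 hr. Mcm2 was lost in control without replicate 3 at 0 or 72 hr (up to 0.0735) and in Cebpa d/d without each of 8 arrays of both genotypes (up to 0.199).

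Origin firing turns the loaded ring into a working helicase. The GINS subunits Gins1 and Gins2 rose in both genotypes. Gins1 was 5.88, 5.80 and 5.86 at 0 hr, 5.67, 5.89 and 5.68 at 3 hr and 6.49, 6.79 and 6.80 at 72 hr in control. Levels in Cebpa d/d arrays were 5.91, 5.97 and 5.73 at 0 hr, 5.65, 5.35 and 6.09 at 3 hr and 6.27, 7.27 and 6.67 at 72 hr. No array at 72 hr overlapped an earlier one (0.84 ± 0.20, adjusted p = 0.0179, and 0.87 ± 0.20, adjusted p = 0.0174). Gins2 rose by 0.54 ± 0.10 (adjusted p = 0.00448) and 0.63 ± 0.10 (adjusted p = 0.00146). Cdc45, the helicase cofactor, passed in control (0.47 ± 0.10, adjusted p = 0.00676) and not in Cebpa d/d (0.32 ± 0.10, adjusted p = 0.0699). The origin firing factor Mcm10 passed in neither (0.27 ± 0.13 and 0.39 ± 0.13, adjusted p = 0.238 and 0.0905).

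The firing kinase has an activating and a catalytic subunit. Dbf4, the activating one, was 6.68, 6.81 and 6.78 at 0 hr in Cebpa d/d, 7.67, 7.01 and 7.36 at 3 hr and 7.49, 7.68 and 7.31 at 72 hr, so that both later groups lay above 0 hr. It rose by 0.74 ± 0.15 (adjusted p = 0.00853) from 0 to 72 hr. In control it was 6.94, 7.29 and 7.40 at 0 hr and 7.53, 7.74 and 7.71 at 72 hr, which did not overlap but did not pass (0.45 ± 0.15, adjusted p = 0.0846). The catalytic subunit Cdc7 was 5.18, 4.94 and 4.99 at 0 hr and 5.03, 5.75 and 5.07 at 72 hr in control, and 5.26, 4.89 and 5.56 at 0 hr and 5.06, 5.63 and 5.59 at 72 hr in Cebpa d/d. Its groups overlapped in both genotypes (0.25 ± 0.19 and 0.19 ± 0.19; adjusted p = 0.512 and 0.686). Gins1 was lost without control replicate 2 at 0 hr or 2 or 3 at 72 hr, and without Cebpa d/d replicate 1 or 3 at 0 hr or 2 or 3 at 72 hr (adjusted p up to 0.102). Dbf4 was lost without Cebpa d/d 72 hr replicate 2 (adjusted p = 0.0615).

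Origin licensing had the lowest median difference among the steps of replication itself: 2 of 5 genes rose in control and 0 of 5 in Cebpa d/d, with median differences of 0.23 and 0.25. Orc6, a subunit of the origin recognition complex, was 8.62, 8.64 and 8.84 at 0 hr and 9.03, 9.50 and 9.32 at 72 hr in control, without overlap (0.58 ± 0.16, adjusted p = 0.0329). The Cebpa d/d levels were 8.39, 8.53 and 8.30 at 0 hr and 8.49, 9.01 and 9.14 at 72 hr, with overlap through replicate 1 at 72 hr (0.48 ± 0.16, adjusted p = 0.0978). The loader Cdc6 passed in control (0.66 ± 0.19, adjusted p = 0.0454) and had 0.17 ± 0.19 in Cebpa d/d (adjusted p = 0.724). The control call of Orc6 was lost without replicate 1 or 2 at 0 hr or 2 or 3 at 72 hr (adjusted p up to 0.162), and that of Cdc6 without each of 10 arrays of both genotypes (up to 0.158). Orc1 had 0.23 ± 0.13 and 0.33 ± 0.13 (adjusted p = 0.31 and 0.158) and Cdt1 0.04 ± 0.10 and 0.06 ± 0.10 (adjusted p = 0.863 and 0.803).

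Geminin, Gmnn, binds Cdt1 and blocks licensing after S phase has begun. In control it was 7.31, 7.75 and 7.61 at 0 hr and 7.66, 7.31 and 7.13 at 72 hr, the only negative difference between 72 and 0 hr among the 42 genes (-0.19 ± 0.24, adjusted p = 0.718). Cebpa d/d arrays gave 7.0, 7.54 and 7.15 at 0 hr and 7.60, 7.55 and 7.29 at 72 hr (0.25 ± 0.24, adjusted p = 0.674). The groups overlapped in both genotypes.

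Among the polymerases and primase, Pole, the catalytic subunit of the leading strand polymerase, rose in both genotypes. It was 5.54, 5.73 and 5.54 at 0 hr and 6.00, 6.14 and 6.44 at 72 hr in control (0.59 ± 0.16, adjusted p = 0.0319). The Cebpa d/d arrays held 5.50, 5.66 and 5.40 at 0 hr and 5.88, 6.44 and 6.48 at 72 hr (0.74 ± 0.16, adjusted p = 0.0103). Neither genotype had overlapping arrays. Its partner Pole2 rose in control by 0.64 ± 0.18 (adjusted p = 0.044) and had nearly the same difference in Cebpa d/d, 0.63 ± 0.18 (adjusted p = 0.0599). Pola1, the polymerase that extends the RNA primer, was 7.42, 7.34 and 7.50 at 0 hr and 7.61, 7.67 and 8.02 at 72 hr in control, and 7.36, 7.53 and 7.54 at 0 hr and 7.51, 7.86 and 7.95 at 72 hr in Cebpa d/d. It passed in neither (0.34 ± 0.12 and 0.30 ± 0.12; adjusted p = 0.0973 and 0.197). The primase catalytic subunit Prim1 had 0.58 ± 0.26 and 0.74 ± 0.26 (adjusted p = 0.2 and 0.119).

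Prim2, the large primase subunit, gave the smallest unadjusted p of the members in the test of a genotype difference in the change from 0 to 72 hr. In control it was 6.60, 6.52 and 6.29 at 0 hr and 6.60, 6.79 and 6.91 at 72 hr (0.30 ± 0.11, adjusted p = 0.133). Values in Cebpa d/d were 6.16, 6.14 and 6.26 at 0 hr and 6.81, 7.18 and 6.96 at 72 hr (0.80 ± 0.11, adjusted p = 0.000503). All Cebpa d/d arrays at 0 hr lay below all control arrays at 0 hr. The difference between the changes was 0.50 (95% interval 0.16 to 0.84; unadjusted p = 0.00639), and it did not pass (adjusted p = 0.725). In Cebpa d/d the rise of Prim2 passed without any single array, while Pole was lost there without replicate 2 or 3 at 72 hr (adjusted p up to 0.0686). In control Pole was lost without any of the 0 hr arrays or replicate 2 or 3 at 72 hr (up to 0.143), and Pole2 without each of 10 arrays of both genotypes (up to 0.183).

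On the lagging strand, Fen1, the flap endonuclease, and Lig1, the ligase that seals the fragments, rose in both genotypes. Fen1 was 6.54, 6.38 and 6.45 at 0 hr, 6.61, 6.58 and 6.65 at 3 hr and 6.89, 7.10 and 7.17 at 72 hr in control. Its levels in Cebpa d/d were 6.43, 6.43 and 6.37 at 0 hr, 6.44, 6.43 and 6.69 at 3 hr and 6.99, 7.24 and 7.11 at 72 hr. No array at 72 hr overlapped an earlier one, and the lowest at 72 hr was control replicate 1. The rises were 0.60 ± 0.10 (adjusted p = 0.00152) and 0.71 ± 0.10 (adjusted p = 0.000302). Lig1 rose by 0.47 ± 0.11 (adjusted p = 0.0137; lost without control replicate 2 at 0 hr or 1 at 72 hr, at up to 0.0645) and 0.72 ± 0.11 (adjusted p = 0.000698).

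Pcna, the sliding clamp that holds polymerases on DNA, was 10.98, 10.71 and 10.90 at 0 hr in control, 11.17, 11.21 and 11.14 at 3 hr and 11.15, 11.31 and 11.26 at 72 hr. Levels in Cebpa d/d arrays were 10.93, 10.84 and 10.57 at 0 hr, 11.30, 11.01 and 11.43 at 3 hr and 11.05, 11.39 and 11.34 at 72 hr. In both genotypes all arrays at 3 and 72 hr lay above all at 0 hr. It rose from 0 to 72 hr in Cebpa d/d (0.48 ± 0.12, adjusted p = 0.0312; lost without replicate 2 or 3 at 0 or 72 hr, at up to 0.167) and did not pass in control (0.38 ± 0.12, adjusted p = 0.0743). The clamp loader subunits Rfc3, Rfc4 and Rfc5 passed in neither, with differences of 0.28 to 0.69. Rpa2, of the complex that coats single-stranded DNA, was 6.81, 6.97 and 6.68 at 0 hr and 7.18, 7.05 and 6.81 at 72 hr in control, and 6.88, 6.81 and 6.94 at 0 hr and 6.71, 7.22 and 7.09 at 72 hr in Cebpa d/d. These groups overlapped (0.20 ± 0.17 and 0.13 ± 0.17; adjusted p = 0.563 and 0.774).

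None of the chromatin genes and none of the G1/S drivers passed from 0 to 72 hr. Uhrf1, which brings the maintenance DNA methyltransferase to new DNA, was 6.41, 6.33 and 6.29 at 0 hr and 6.76, 6.97 and 6.72 at 72 hr in control, without overlap (0.47 ± 0.15, adjusted p = 0.0711). The Cebpa d/d levels were 6.43, 6.14 and 6.41 at 0 hr and 6.32, 6.81 and 7.09 at 72 hr, with overlap through replicate 1 at 72 hr (0.41 ± 0.15, adjusted p = 0.144). The histone chaperone subunits, which deposit histones behind the fork, had 0.23 ± 0.15 and 0.46 ± 0.15 for Chaf1a (adjusted p = 0.414 and 0.0806). Chaf1b was 6.07, 5.96 and 6.20 at 0 hr and 6.13, 6.50 and 6.49 at 72 hr in control, and 6.16, 5.92 and 6.05 at 0 hr and 6.32, 6.22 and 6.28 at 72 hr in Cebpa d/d (0.29 ± 0.11 and 0.22 ± 0.11; adjusted p = 0.126 and 0.312). The Chaf1b groups overlapped in control alone.

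E2f1, an activating E2F factor, was 6.17, 6.22 and 6.24 at 0 hr and 6.44, 6.21 and 6.27 at 72 hr in control, with overlap (0.10 ± 0.10, adjusted p = 0.647). Cebpa d/d arrays gave 6.25, 6.26 and 6.29 at 0 hr and 6.35, 6.38 and 6.75 at 72 hr, without overlap (0.23 ± 0.10, adjusted p = 0.247). The cyclins that drive entry into S phase did not pass either, and the differences of Ccne2 were larger than those of E2f1. Ccne2 was 6.67, 6.42 and 6.84 at 0 hr and 6.92, 6.97 and 7.16 at 72 hr in control, without overlap (0.38 ± 0.21, adjusted p = 0.346). The Cebpa d/d arrays held 6.17, 6.45 and 6.51 at 0 hr and 6.31, 7.15 and 7.11 at 72 hr, with overlap (0.48 ± 0.21, adjusted p = 0.252). Ccne1 had 0.23 ± 0.13 and 0.13 ± 0.13 (adjusted p = 0.309 and 0.681).

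Of the checkpoint genes, claspin, Clspn, which passes the signal of stalled forks to the kinase Chk1, rose in both genotypes. It was 5.76, 6.13 and 6.20 at 0 hr and 6.80, 6.61 and 6.75 at 72 hr in control (0.69 ± 0.15, adjusted p = 0.00979). Values in Cebpa d/d were 6.08, 6.07 and 6.10 at 0 hr and 6.34, 7.02 and 6.67 at 72 hr (0.59 ± 0.15, adjusted p = 0.03; lost without any array at 0 hr or replicate 2 or 3 at 72 hr, at up to 0.187). No arrays overlapped. Dtl, part of the ligase that destroys Cdt1 in S phase, passed in Cebpa d/d (0.49 ± 0.11, adjusted p = 0.0188; lost without replicate 1 or 2 at 0 hr or 2 or 3 at 72 hr, at up to 0.0943) and not in control (0.37 ± 0.11, adjusted p = 0.0605). Fanci, of the crosslink repair pathway, was 6.13, 6.09 and 5.82 at 0 hr and 6.24, 6.28 and 6.24 at 72 hr in control, and 5.99, 6.08 and 6.02 at 0 hr and 6.11, 6.35 and 6.33 at 72 hr in Cebpa d/d. Its groups did not overlap, yet it passed in neither (0.24 ± 0.09 and 0.23 ± 0.09; adjusted p = 0.122 and 0.165).

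**Figure D3:**
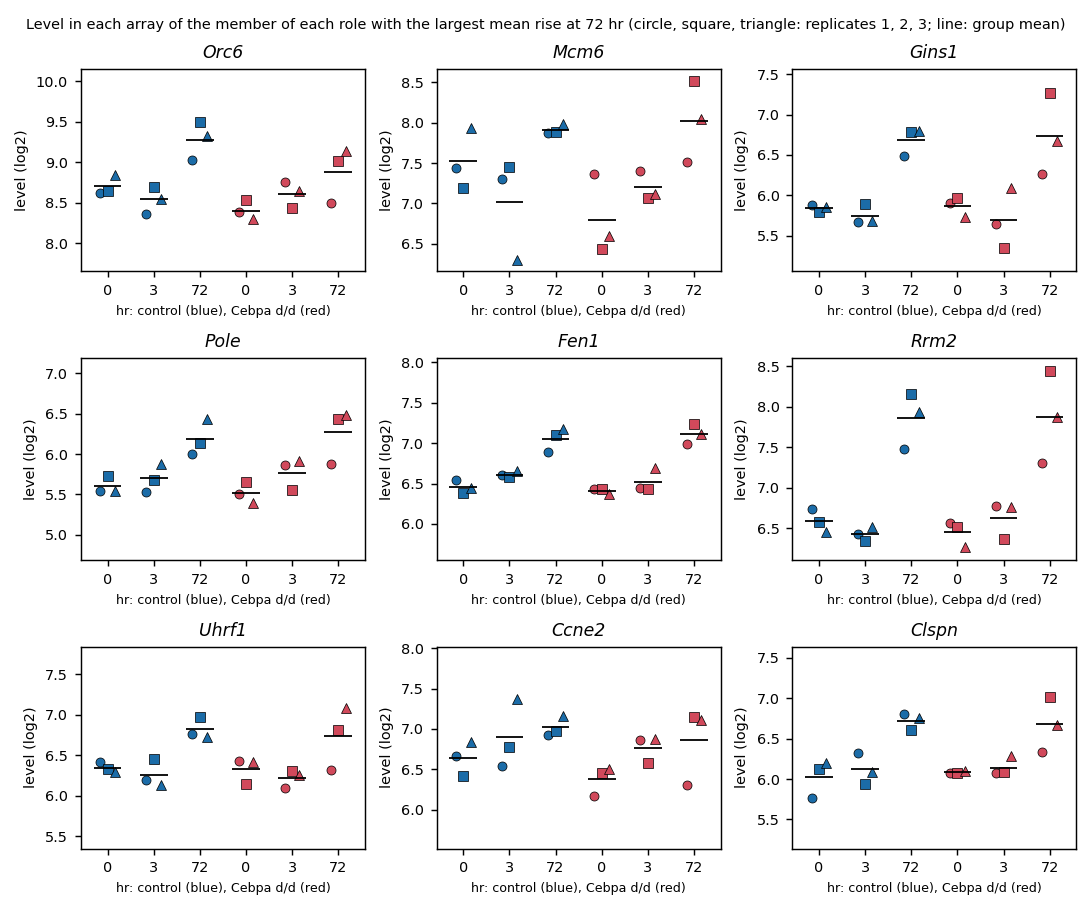
Level (log2, vertical axis) in each array of the gene of each role with the largest mean difference between 72 and 0 hr, at 0, 3 and 72 hr in control (blue) and Cebpa d/d (red); lines are means of 3 arrays, and every panel spans the same number of log2 units. Rrm2 moves from 6.27 to 6.77 at 0 and 3 hr to 7.30 to 8.44 at 72 hr, and in Uhrf1, Ccne2 and Orc6 the circle of Cebpa d/d at 72 hr lies at the level of the earlier arrays.

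At 3 hr few members passed. In control 0 rose and 1 fell (1.88% of all genes rose and 1.62% fell), and in Cebpa d/d 2 rose and 0 fell (2.66% rose and 1.72% fell). The median difference over the 42 was 0.05 in both genotypes, against 0.03 and -0.02 over all genes. The control median was below 0, at -0.02 or -0.01, without control 0 hr replicate 3 or without control 3 hr replicate 1 or 2. The gene that fell in control was the clamp loader subunit Rfc3, at 7.94, 7.66 and 8.01 at 0 hr and 7.29, 7.42 and 7.16 at 3 hr, without overlap (-0.58 ± 0.15, adjusted p = 0.0399). Its levels in Cebpa d/d were 7.74, 7.67 and 7.71 at 0 hr and 7.34, 7.42 and 7.90 at 3 hr, with overlap (-0.15 ± 0.15). In Cebpa d/d, Dbf4 (0.59 ± 0.15, adjusted p = 0.036) and Pcna (0.47 ± 0.12, adjusted p = 0.0393) rose. All 3 calls were lost without some single array, 9 arrays for Rfc3, 8 for Pcna and 5 for Dbf4, at adjusted p up to 0.201. Rfc3 did not pass without Cebpa d/d 72 hr replicate 1 and the array labelled control 0 hr replicate 1 together (adjusted p = 0.117). Mcm10 was near the threshold in both genotypes (0.42 ± 0.13 and 0.39 ± 0.13; adjusted p = 0.071 and 0.096).

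Against 3 hr, more members passed at 72 hr. In control 25 members rose and 0 fell (11.2% of all genes rose and 8.57% fell), and in Cebpa d/d 18 rose and 0 fell (4.88% rose and 3.67% fell), with medians of 0.51 and 0.50 against -0.07 and 0 over all genes. This comparison shares its 72 hr arrays with the one against 0 hr. Of the 25 and the 18, 17 rose in both genotypes, and 9 of these passed whichever array was left out: Dtl, Fen1, Gins1, Gins2, Lig1, Pola1, Prim2, Rrm1 and Rrm2. All 5 polymerase and primase genes rose in control, with Prim1 at 1.10 ± 0.26 (adjusted p = 0.00742). Of these, Pole was lost without control replicate 1 or 2 at 3 hr or 2 or 3 at 72 hr (adjusted p up to 0.163), and Pole2 without each of 11 arrays (up to 0.19) and with sex as a covariate (0.0824). Pcna, Tk1 and Mcm10 had differences of 0.07, 0.02 and -0.16 in control and 0.01, 0.00 and 0.00 in Cebpa d/d. E2f1 passed in Cebpa d/d (0.39 ± 0.10, adjusted p = 0.0247; 0.15 ± 0.10 in control). That call was lost without any of the 3 hr arrays of Cebpa d/d or replicate 3 at 72 hr (adjusted p up to 0.135), and with sex as a covariate (adjusted p = 0.0726). No call was made for Ccne1 and Ccne2 in either genotype. Among the chromatin genes, Chaf1a and Uhrf1 rose from 3 hr whichever the genotype, and Chaf1b passed in neither. The median of this role was 0.56 for control arrays and 0.52 for Cebpa d/d arrays. Each Chaf1a and Uhrf1 call was lost without some single array, at adjusted p up to 0.213. With sex as a covariate, only the Chaf1a call in control remained (adjusted p = 0.0455).

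Genotypes were compared to ask whether Cebpa d/d changed the replication genes at any time. No member passed at 0 hr (0.336% of all genes did), 3 hr (0.0150%) or 72 hr (0.0702%), nor in the tests of whether the change over time differed between genotypes: 0% of genes passed from 0 to 3 hr, 0.0953% from 0 to 72 hr and 0.01% from 3 to 72 hr. At an unadjusted p under 0.05 in the same limma fit there were 3 members at 0 hr (Mcm6, Prim2 and Dbf4), 1 at 3 hr (Cdt1) and 1 at 72 hr (Orc6), and in the tests of the changes 3 from 0 to 3 hr (Cdt1, Prim2 and Dbf4), 1 from 0 to 72 hr (Prim2) and 2 from 3 to 72 hr (Cdt1 and Orc6). Over all genes, 8.53%, 5.02% and 6.31% reached an unadjusted p under 0.05 at 0, 3 and 72 hr, and 6.85%, 4.47% and 6.06% in the tests of the changes, so the members' counts were near or below the background. At 72 hr the difference of a member ranged from -0.40 to 0.22, with a median of 0.04 (0.02 over all genes). The 95% intervals reached 0.19 to 0.64 to either side of the difference, with a median of 0.31. These intervals are not adjusted for the number of genes, and larger differences did not pass either, such as that of Mcm6 at 0 hr (-0.72), the member with the widest interval. Rrm2 differed by 0.01 (-0.45 to 0.47), Fen1 by 0.06 (-0.14 to 0.26) and Mcm6 by 0.11 (-0.52 to 0.75). Orc6 was lower in Cebpa d/d by -0.40 (-0.73 to -0.07; unadjusted p = 0.0212, adjusted p = 0.741).

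The genotype difference at 72 hr turned with single arrays. Cebpa d/d 72 hr replicate 1 was the lowest of its group for 36 of 42 members, with a median of -0.25 below the group mean, where over all genes its median was 0.01. The median SD over members was 0.26 in this group and 0.12 to 0.16 in the other 5, against 0.11 to 0.14 over all genes in each group. With all arrays 29 of 42 members were higher in Cebpa d/d. Without that replicate 36 of 42 were, with a median of 0.14, and without Cebpa d/d 72 hr replicate 2 there were 13, with a median of -0.04. Without control 72 hr replicate 1 there were 20, with a median of -0.01, and with arrays centred on their medians 21, with a median of 0.00. No member passed in any of these fits. The same replicate had the lowest mean of the 42 mitosis genes at 72 hr (7.17, against 8.02 and 7.62), the highest Cebpa level (9.07, against 8.55 and 7.90), and the highest club cell marker mean (11.91, against 11.37 and 11.56). Its macrophage mean was 7.14 against 7.75 and 7.62, and its smooth muscle mean 9.89 against 10.78 and 10.28. The part of these differences in the result was not tested.

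**Figure D4:**
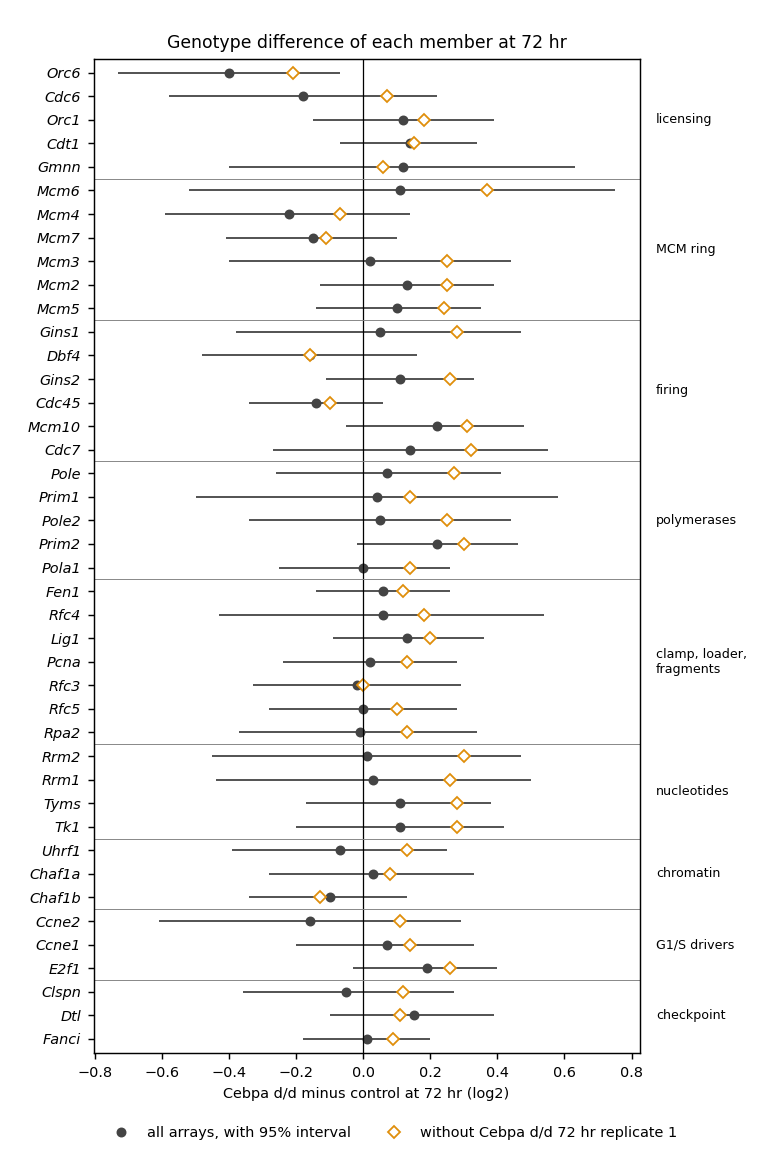
Difference between Cebpa d/d and control at 72 hr (log2, horizontal axis) of each of the 42 genes, grouped by role, with its 95% interval (circles, all arrays) and without Cebpa d/d 72 hr replicate 1 (diamonds). The circles scatter around 0 from -0.40 to 0.22, and most diamonds lie to the right of their circle, with 36 of 42 above 0.

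Other genes of the cell cycle were followed as lists of names. Of 72 measured genes of replication and S phase that are not members (75 listed), 17 rose in control and 15 in Cebpa d/d from 0 to 72 hr and 0 fell, with medians of 0.24 in each. Over all genes 4.95% and 3.39% rose, with medians of -0.02 in each. Cyclin A, Ccna2, which drives S phase onward, rose by 1.66 ± 0.19 (adjusted p = 0.000164) and 1.71 ± 0.19 (adjusted p = 6.1e-05). The chromatin remodeller Hells rose by 1.49 ± 0.27 and 1.58 ± 0.27, and Dscc1, of the cohesion clamp loader, by 1.44 ± 0.24 and 1.09 ± 0.24. Chek1, the checkpoint kinase that claspin serves, rose at 3 hr already, by 1.18 ± 0.22 (adjusted p = 0.00926) and 1.55 ± 0.22 (adjusted p = 0.000571), and was above 0 hr at 72 hr too (1.09 ± 0.22 and 1.02 ± 0.22; adjusted p = 0.00722 and 0.0126). Rad1 and Atrip, of the checkpoint sensors, did not pass (-0.35 to -0.10).

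Genes of mitosis had larger differences. Of 42 measured (43 listed), 40 rose in control and 41 in Cebpa d/d from 0 to 72 hr, with medians of 1.38 and 1.48. The shares of all genes that rose were 4.95% and 3.39%. The mitotic kinase Cdk1 rose by 1.83 ± 0.23 and 2.05 ± 0.23 and Top2a, which untangles DNA, by 1.91 ± 0.20 and 1.87 ± 0.20. The spindle motor Kif11 rose by 1.89 ± 0.32 and 1.93 ± 0.32 and the cytokinesis gene Ect2 by 1.87 ± 0.16 and 1.90 ± 0.16. At the low end, Racgap1, the partner of Ect2, rose by 0.68 ± 0.13 and 0.52 ± 0.13, and the transcription factor Mybl2 did not pass (0.17 ± 0.12 and 0.24 ± 0.12; adjusted p = 0.487 and 0.333). In every array at 72 hr the median change from the 0 hr mean was larger over the mitosis genes, 0.86 to 1.95, than over the replication genes, 0.26 to 0.59. At 3 hr 4 mitosis genes had fallen in control, Top2a among them (-0.79 ± 0.20, adjusted p = 0.0385), and 0 in Cebpa d/d, where 1.62% and 1.72% of all genes fell. Of genes that push G1 forward, 2 of 6 rose at 72 hr in each genotype: Myc and cyclin D1, Ccnd1, in control, and Ccnd1 and Cdk4 in Cebpa d/d. Myc, a transcription factor that drives growth, had risen most at 3 hr, by 2.75 ± 0.28 and 2.72 ± 0.28. Of 12 measured genes that hold G1 back (13 listed), 0 passed at 72 hr in limma, while an unadjusted p under 0.05 was found for 2 in control and 1 in Cebpa d/d, against 21.1% and 17.5% of all genes. Cdkn2c, an inhibitor of Cdk4, had 0.44 ± 0.23 and 0.57 ± 0.23, the antiproliferative gene Btg2 -0.42 ± 0.20 and -0.02 ± 0.20, and cyclin D3, Ccnd3, which pushes G1 forward, -0.07 ± 0.12 and -0.22 ± 0.12.

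Markers of other cells moved over the same interval. Over it 4.95% of all genes rose and 2.20% fell in control, and 3.39% rose and 1.42% fell in Cebpa d/d. From 0 to 72 hr 3 of 8 macrophage markers rose in control (range of the mean over arrays 7.02 to 7.17, then 7.71 to 8.06) and 0 of 8 in Cebpa d/d (7.17 to 7.26, then 7.14 to 7.75). Endothelial markers fell for 4 of 7 in control and 2 of 7 in Cebpa d/d (9.12 to 9.62 and 9.24 to 9.55, then 8.59 to 9.03 and 8.69 to 8.89). Ciliated cell markers rose for 1 of 9 and 5 of 9, fibroblast markers for 2 of 7 and 0 of 7, and basal cell markers for 0 of 4 in both. Alveolar type 1 markers rose for 1 of 7 and fell for 2 in control, and rose for 1 and fell for 1 in Cebpa d/d. Alveolar type 2 markers rose for 1 of 8 and 0 of 8, and neutrophil markers for 0 of 7 in both. T and B lymphocyte markers fell for 2 of 6 and 0 of 6. In Cebpa d/d 8 of 9 cardiac muscle markers fell, and in control 0 of 9. Of 8 club cell markers 1 rose and 3 fell in control, and 1 rose and 0 fell in Cebpa d/d. The erythroid mean over arrays was 7.09 to 7.23, then 6.28 to 6.36 in control, and 6.99 to 7.43, then 6.44 to 6.86 in Cebpa d/d. That of smooth muscle markers was 10.29 to 10.41, then 10.49 to 10.62 in control, and 10.15 to 10.27, then 9.89 to 10.78 in Cebpa d/d. Which cells the replication transcripts came from was not tested.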

How the data were processed

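Total RNA of terminal bronchiolar epithelial cells was measured on 18 Affymetrix arrays, in 6 groups of 3 set by the genotype and time in the labels. The deposited table holds log2 values, 1 column an array. Per the submitters' processing notes the authors used RMA; its version, the genome build and any filter are not given in the sources used here. Array medians were 6.48 to 6.65, arrays of a group correlated at 0.973 or more, and precision is set by there being 3 arrays a group.

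Of 35557 probe sets, 21789 had 1 symbol, 1621 several and 12147 none; only the first were used, giving 19938 genes, of which 19856 were found in the RefSeq table (GRCm38.p6) used for names. The 6 group means were fitted with limma 3.58.1 in R 4.3.3 (12 residual and 4.49 prior degrees of freedom), without a replicate block, and P-values were adjusted by Benjamini-Hochberg within each contrast. The code was tested on simulated data. The members and all lists were chosen with earlier results of these data known. All members are named; each array's values are given for the genes with the largest and smallest mean difference between 72 and 0 hr in each role, and for Rfc3, Dbf4, Pcna and Prim2, chosen after their values were seen. From the other cell cycle lists the genes with the largest and smallest such means were named. Alternatives changed the filter, probe set rule, moderation, weights, block, samples fitted, centring, sex term and threshold, and left out arrays.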

Additional observations from a re-analysis of the deposited data

How the results depend on the processing

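Counts are of members that passed, in the order 72 against 0 hr in control (17) and Cebpa d/d (16), 72 against 3 hr in control (25) and Cebpa d/d (18), and 3 against 0 hr in control (1) and Cebpa d/d (2). The share of all genes that passed under each alternative is not given here. A count that moved therefore does not show a change particular to the members. No count or single gene's called difference changed direction, but medians over members that lay near 0 did. From 0 to 3 hr in control the median was 0.05, and -0.02 with array weights, -0.16 without genes below the median level, and -0.02 to -0.01 without control 0 hr replicate 3 or 3 hr replicate 1 or 2. Between genotypes at 72 hr it was 0.04, and -0.01 and -0.04 without control replicate 1 and Cebpa d/d replicate 2. At an adjusted p under 0.01 they were 6, 8, 16, 11, 0 and 0. Without genes below the median level, which left 20 members, the first 4 were 9, 9, 14 and 10. With sex as a covariate the control count against 0 hr was 11, and the counts at 3 hr were 0 and 1. Array weights gave 33 for Cebpa d/d against 0 hr and 2 for control at 3 hr. Leaving out both arrays that stand apart gave 26 and 0 for the same comparisons. At 3 hr, fitting only the groups compared gave 0 and 0, and centring gave 0 and 1. An unadjusted p under 0.05 with 1.5-fold change gave 15 for control against 3 hr, 0 and 1 at 3 hr, 1 between genotypes at 0 hr and 1 in the interaction from 0 to 3 hr. Leaving out each array in turn gave 7 to 19, 7 to 26, 18 to 25, 12 to 23, 0 to 2 and 0 to 2, and 0 to 0 for genotype and interaction comparisons. Same-numbered arrays correlated at -0.288 to 0.199 over 27 pairs, which gave no clear sign that the numbers pair them but cannot exclude it. With the replicate block the counts were 17, 16, 24, 18, 1 and 0. The share of members with an E2F motif moved from 40.0% to 68.6% with the shorter motif. Probe background and saturation were not examined. With 3 arrays a group a genotype difference of -0.72 (Mcm6 at 0 hr) did not pass. Mcm6 had the widest 95% interval of the members (-1.35 to -0.08), so it does not stand for a typical member.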

Other observations

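Pcna and Tk1 each had a further single-symbol probe set that was not used. For Pcna both carry the same 4 accessions, and the unused one gave 0.39 in control and 0.49 in Cebpa d/d from 0 to 72 hr, against 0.38 and 0.48. For Tk1 the probe sets share 6 of 8 accessions, and the unused one gave 0.23 and 0.15 against 0.35 and 0.31. At 3 hr in Cebpa d/d the Tk1 probe sets differed in sign, with -0.09 for the unused and 0.32 for the used one.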
